A study of Saccharomyces cerevisiae with 12 samples.

Results

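Gene expression was compared between budding yeast without the SGS1 gene (sgs1Δ) and its wild type (WT) in control medium. The comparison takes the 6 control arrays of a series of 12, namely the 3 labelled sgs1Δ control and the 3 labelled WT control, and covers all 6264 genes detected. The 416 genes of chromosome II, nearly all recognised by systematic names that begin with YBL or YBR, were kept apart from the 5816 genes elsewhere. Non-coding RNA probes without such a name, 7 at most, were placed there by RefSeq or by the letter in the tRNA name. Another 32 probes that name genes of both kinds entered neither count. The other 6 arrays hold both strains with 30 µM tangeretin, a methoxylated flavone of citrus peel, and give a second reading of the strain difference. They shared the normalization, the detection filter and the estimate of spread with the control arrays. WT is strain YCL1071 and sgs1Δ is strain YCL1098, in which the kanMX4 cassette takes the place of SGS1. Shared by both are the MATα label, the alleles his3Δ1, met15Δ0, leu2Δ0 and ura3Δ0, a trp1 deletion marked with HPH, and the plasmid pRS414-GAL1-HO-TRP1. On that plasmid the mating-type endonuclease gene HO stands behind the galactose promoter GAL1, beside the marker TRP1. Cells of all 4 groups were kept for 4 h at 30 °C in medium lacking tryptophan, with 0.2% DMSO as the solvent. Each genotype is represented by 1 strain. Separate cultures for the 3 arrays of a group are not stated in the labels, and the file headers give those arrays a common sample number, so the p-values may cover no more than technical spread.

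Sgs1 is the RecQ family DNA helicase of budding yeast, a relative of the human BLM and WRN proteins. Together with the topoisomerase Top3 and with Rmi1 it takes apart recombination intermediates without crossing over, and it also acts at broken DNA ends and stalled replication forks. Yeast without Sgs1 is known for elevated recombination and for losing or gaining chromosomes more often than WT.

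The arrays were Phalanx OneArray slides hybridised with Cy5-labelled material in 1 colour. Raw intensities had a median of 528, 543 and 808 on the WT arrays and of 959, 1337 and 919 on the sgs1Δ arrays, so every sgs1Δ array was brighter than every WT array. Values below are normalized intensities in arbitrary units with an offset of 50 included, and differences are log2 of sgs1Δ over WT with the standard error (SE) of the fit over 3 arrays a group. A gene was called when its adjusted p from limma was under 0.05, and "rose" and "fell" are used of called genes only. A probe counted as detected where the scanner flag was 0, and genes detected on at least 3 of the 12 arrays were tested. Between 88.5% and 94.5% of gene probes were detected on a control array. The correlation across genes was 0.9916 to 0.9965 between arrays of a group and 0.962 to 0.981 between strains.

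The deletion was visible in the data. SGS1 read 306, 280 and 211 on the WT arrays and 56.9, 55.3 and 54.2 on the sgs1Δ arrays, none of which detected it. The groups did not overlap, and SGS1 was at least 4.73-fold lower in sgs1Δ (adjusted p = 7.96e-09). Its partner RMI1 had a difference of 0.21 ± 0.12 (SE, adjusted p = 0.163) and was not called, and TOP3 was detected on none of the WT arrays and 1 sgs1Δ array, so no change is given for it. The neighbours of SGS1 on chromosome XIII by systematic name, SPG5 and GCV2, differed by 0.24 ± 0.09 (SE, adjusted p = 0.0433, not called with brightness) and 0.58 ± 0.23 (SE, adjusted p = 0.0535). The call of SPG5 was lost when any 1 array was left out, except for sgs1Δ control 3 and WT tangeretin 3. TRP1, the plasmid marker, rose by 0.41, and HO by 0.43, a call lost without WT control 1 and without sgs1Δ control 1. Plasmid and chromosomal copies of HO were not told apart. LEU2, deleted in both strains, read 120.5, 114 and 95.6 on the WT arrays and 83.2, 73.9 and 87.9 on the sgs1Δ arrays, close to the offset of 50, and fell by 0.43. HIS3, partly deleted in both, had a difference of 0.27 and was not called, MET17 (MET15), deleted in both, was detected on 1 array of each strain and had a called difference of -0.32 (not called without WT control 1 or sgs1Δ control 1 or 3), and URA3 was detected on too few arrays to be tested. Calls lost with array brightness in the fit, with the log2 difference then, were those of TRP1 (0.29), HO (0.31), LEU2 (-0.03) and MET17 (-0.23).

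Of all genes tested 48.3% were called (21.2% higher and 27.2% lower), and chromosome II and the rest of the genome differed in direction and size. On chromosome II, 337 of 416 genes rose (81%) and 12 fell (2.88%). Elsewhere 979 of 5816 rose (16.8%) and 1680 fell (28.9%), with a median difference of -0.06. The lean to falls depends partly on the normalization. As an alternative, normalizing without chromosome II probes gave 1158 higher and 1427 lower elsewhere, with a median of -0.02. Differences of at least 2-fold were called for 101 chromosome II genes that rose (24.3%) and 2 that fell (0.481%), and elsewhere for 100 that rose (1.72%) and 91 that fell (1.56%). The arrays of the strains did not overlap for 51.8% of all genes. Most calls outside chromosome II were therefore small, and many were not called with array brightness in the fit. With the log2 brightness of each array as a further term in the fit, 234 genes outside chromosome II were called higher and 315 lower, and 486 of the 2659 calls were kept with their sign. On chromosome II 234 were then called higher and 3 lower, and 229 of 349 calls were kept. Brightness and strain overlap in these arrays, since all sgs1Δ control arrays were the brighter ones, so the share of each in a small difference cannot be told apart. The genes below are therefore led by those with large differences, and the count with brightness is given beside each list it moves. List counts below are to be read against the shares over all genes given in this paragraph.

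Chromosome II stood at a higher level along most of its length in sgs1Δ. Its 416 genes had a median difference of 0.72 (quartiles 0.40 and 0.98), which is a 1.65-fold higher median, and 92.8% of them lay above 0. The chromosome medians elsewhere ran from -0.18 on chromosome III to 0.03 on chromosome VI. Set against the WT mean, the median over chromosome II was 0.01, 0.01 and -0.02 on the WT arrays and 0.70, 0.68 and 0.73 on the sgs1Δ arrays. The arrays of each strain thus lay close together and far from those of the other strain. The plot by chromosome shows the same separation, with the lower quartile of chromosome II above the upper quartile of every other chromosome.

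**Figure D1:**
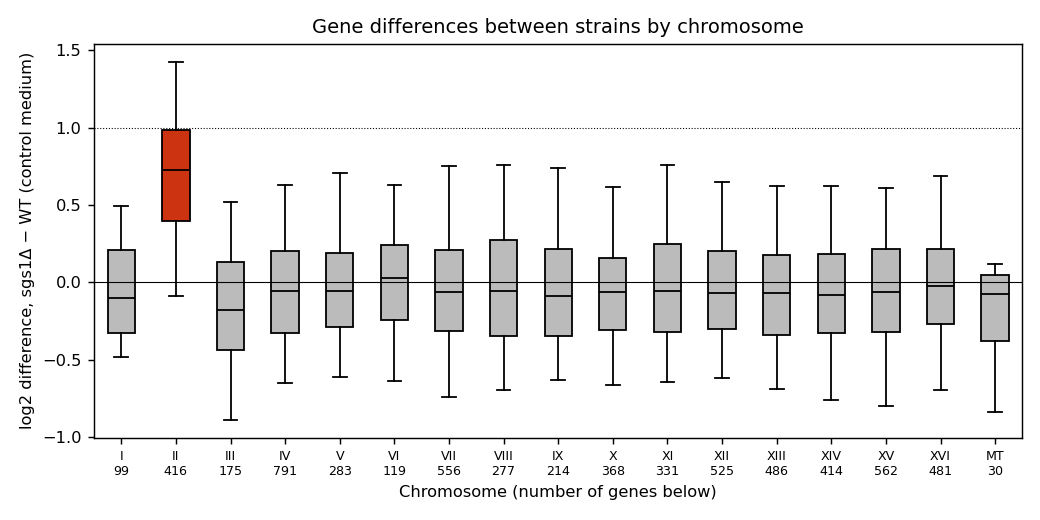
Log2 difference between strains in control medium for the genes of each chromosome and of mitochondrial DNA (MT), with boxes for the quartiles, a black line for the median and whiskers at the 5th and 95th percentiles. The chromosome II box (red) runs from 0.40 to 0.98 around a median of 0.72, while the other medians lie between -0.18 and 0.03. The dotted line marks a 2-fold difference.

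Both arms took part. The 108 genes of the left arm (YBL) had a median of 0.76 with 85 higher, and the 296 of the right arm (YBR) a median of 0.73 with 249 higher. In running windows of 20 neighbouring genes the median ranged from 0.43, between SEC66 and YBR191W-A, to 0.96, between AST1 and MOH1. Windows on all other chromosomes ranged from -0.35, on chromosome XIII, to 0.26, on chromosome XV between MPD2 and NUF2, so the lowest chromosome II window lay above the highest window elsewhere. The first 20 genes at the left end and the last 20 at the right end had medians of 0.57 and 0.51, against 0.77 for the 20 genes around the centromere. No test was made of these stretches against each other. The outermost genes in order were not called higher. At the left end YBL113C, YBL109W and YBL108W had differences of -0.13, -0.41 and -0.13. At the right end YBR300C and COS2 had differences of 0.01 and 0.03. By WT level, the dimmest tercile of chromosome II genes had a median of 0.66, the middle tercile 0.85 and the brightest 0.61.

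**Figure D2:**
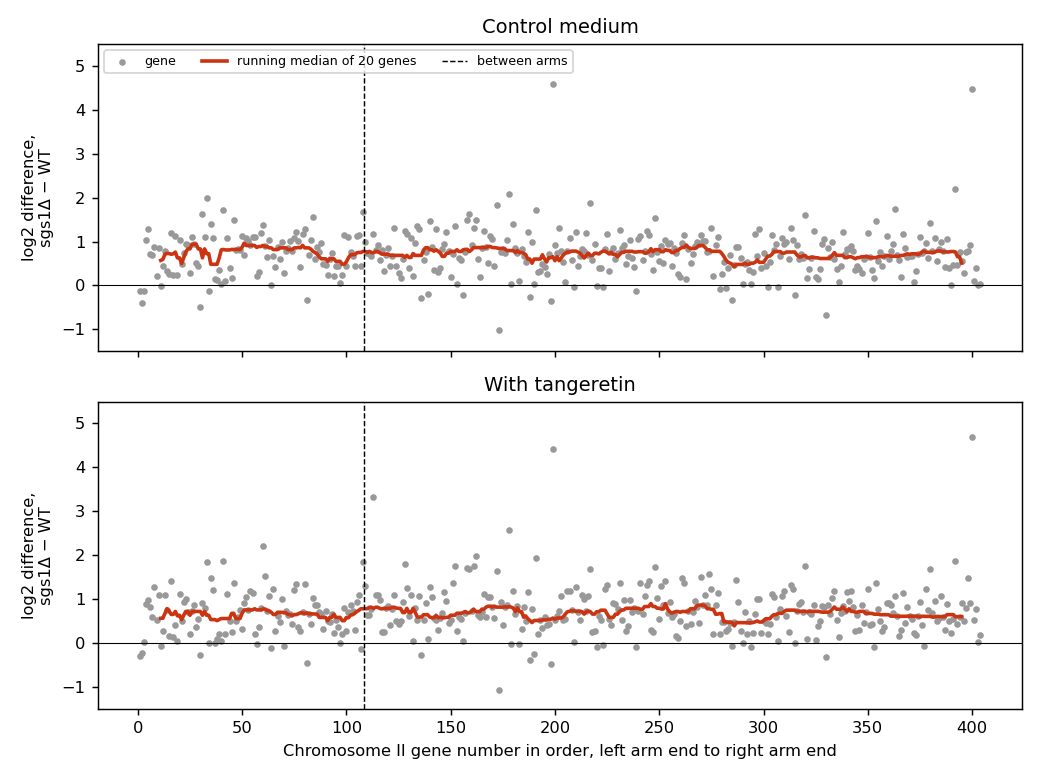
Log2 difference between strains for 404 chromosome II genes in order along the chromosome, leaving out probes with no place in the YBL or YBR order, in control medium (top) and with tangeretin (bottom), with the running median of 20 genes in red and the boundary between the arms dashed. The red line stays between 0.43 and 0.96 in control medium. PHO5 and PHO89 are the points above 4.

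Single genes of chromosome II varied around this level. Of the 416, 174 had a difference between 0.5 and 1, and 17 exceeded 1.5. The 382 genes matched to a single RefSeq gene had a median of 0.75 with 330 higher. Probes not matched to RefSeq, among them old gene models, were 32 in number and had a median of -0.0043 with 6 higher. The 7 probes for tRNAs and other non-coding RNAs of chromosome II, some counted among these, had a median of -0.38 with 1 higher. Of the 79 genes not called higher, 26 were probes not matched to RefSeq and 31 lay among the dimmest 25% of genes on the array. Some bright genes did not pass either. The ribosomal protein genes RPL21A and RPS11B, named after their values were seen, had differences of 0.04 and 0.03. Their probes may not tell them apart from paralogous genes. Of 62 chromosome II genes that belong to any of the lists described below, 52 rose and 1 fell, with a median of 0.75. TIP1, which encodes a cell wall mannoprotein, was the one that fell. It read 32707, 34355 and 37633 on the WT arrays and 16956, 16664 and 18014 on the sgs1Δ arrays, a difference of -1.02 ± 0.09 (SE, adjusted p = 1.74e-06). The aspartate and phenylalanine tRNA probes TD(GUC)B and TF(GAA)B had differences of -1.19 and -0.79, and the unmatched model YBR224W one of -0.68. Both tRNA probes were placed on chromosome II by the last letter of their names. Copies of these tRNA genes on other chromosomes were not told apart. The calls of TF(GAA)B and YBR224W were lost with brightness in the fit. The arrays measured RNA, and whether the strains differ in copies of chromosome II was not tested.

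A few chromosome II genes rose far beyond the level of their neighbours. PHO5, the secreted acid phosphatase, read 686, 731 and 618 on the WT arrays and 16584, 15807 and 16664 on the sgs1Δ arrays, a 24.1-fold rise with a log2 difference of 4.59 ± 0.10 (SE, adjusted p = 2.74e-13). PHO89, the sodium-coupled phosphate transporter, read 103, 119 and 124 on the WT arrays and 2780, 2056 and 2937 on the sgs1Δ arrays, a 22.3-fold rise with a log2 difference of 4.48 ± 0.16 (SE, adjusted p = 9.89e-11). For both, every sgs1Δ array lay more than 10-fold above every WT array. Next came the membrane protein gene YBR287W (2.19), the small heat shock protein gene HSP26 (2.09), the autophagy gene ATG8 (1.99), the nucleotide-sugar hydrolase gene YSA1 (1.89), the repressor gene NRG2 (1.83) and the riboflavin synthase gene RIB5 (1.74). Those 6 lay 1.74 to 2.19 above WT, against the chromosome median of 0.72. All 8 kept their calls with brightness in the fit and without any single array.

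Genes of the zinc starvation response, which the activator Zap1 switches on when zinc is scarce, were lower in sgs1Δ and held the largest falls of the comparison, those of ZPS1 and ZRT1. ZPS1, a cell surface protein made when zinc is low, read 62506, 61714 and 62111 on the WT arrays and 1536, 1258 and 1282 on the sgs1Δ arrays. The groups lay far apart, with a 45.9-fold fall with a log2 difference of -5.52 ± 0.09 (SE, adjusted p = 2.01e-14). ZRT1, the high-affinity zinc transporter of the plasma membrane, read 65518, 65521 and 65517 on the WT arrays and 2606, 2256 and 2451 on the sgs1Δ arrays. It was saturated on all 3 WT arrays, so the 26.9-fold difference is a lower bound: ZRT1 was at least 26.9-fold lower in sgs1Δ (adjusted p = 2.01e-14). The zinc-sparing alcohol dehydrogenase gene ADH4 read 20416, 20278 and 17989 on the WT arrays and 3177, 2807 and 2692 on the sgs1Δ arrays, a fall with a log2 difference of -2.76 ± 0.09 (SE, adjusted p = 5.21e-11). VEL1, a secreted protein of unknown function, read 829, 763 and 670.4 on the WT arrays and 129.7, 119.8 and 128 on the sgs1Δ arrays, a fall with a log2 difference of -2.58 ± 0.11 (SE, adjusted p = 6.69e-10). Its relative YOR387C had a difference of -2.45. None of these groups overlapped.

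Of 16 zinc response genes measured, 11 fell and 1 rose, with a median of -0.66 against -0.06 for all genes outside chromosome II. Beside the 4 above, the membrane receptor family genes IZH4 and IZH1 fell by 1.62 and 1.46, the low-affinity iron and zinc transporter gene FET4 by 1.01, the vacuolar zinc exporter gene ZRT3 by 0.70 and the vacuolar importer gene ZRC1 by 0.62. The low-affinity transporter gene ZRT2 and the phosphatase gene DPP1 fell by 0.47 and 0.27. The gene of the activator itself, ZAP1, had a difference of -0.20 that was not called, and ZRG17, a transporter of the endoplasmic reticulum, was the member that rose (0.53). With brightness in the fit the list had 0 higher and 10 lower, and with tangeretin 0 higher and 12 lower. The plot of single arrays shows both strains apart for ZPS1, ZRT1, ADH4 and VEL1 in both media. Of the genes named, DPP1 (-0.39) and ZRG17 (0.15) lost the call with brightness (log2 difference then in brackets).

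Phosphate response genes moved the other way. They are switched on by the activator Pho4 when phosphate is short, or when the inhibition by the cyclin-dependent kinase Pho85 is relieved. Of 16 measured, 14 rose and 0 fell, with a median of 0.84. The high-affinity transporter gene PHO84 was detected on too few arrays to be tested. SPL2, a small protein that turns down low-affinity phosphate uptake, read 142, 129.7 and 121 on the WT arrays and 1967, 2012 and 2064 on the sgs1Δ arrays, a 15.4-fold rise with a log2 difference of 3.95 ± 0.09 (SE, adjusted p = 4.4e-13). The acid phosphatase probe shared by PHO11 and PHO12 (PHO11/PHO12) read 826, 822 and 754 on the WT arrays and 7984, 8003 and 7906 on the sgs1Δ arrays, a 9.96-fold rise with a log2 difference of 3.32 ± 0.09 (SE, adjusted p = 2.52e-12). With PHO5 and PHO89 they form the strongest risers of the list, and the groups of all 4 were apart.

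The genes that store phosphate as polyphosphate in the vacuole rose less. VTC3 and VTC2 rose by 1.63 and 1.09, VTC1 by 0.83 and VTC4 by 0.53. The nucleotidase gene PHM8 rose by 1.38, the regulator gene PHO81, an inhibitor of Pho85, by 0.73, and the vacuolar alkaline phosphatase gene PHO8 by 0.60. PHO3, the constitutive acid phosphatase gene next to PHO5 on chromosome II, read 1545, 1776 and 1948 on the WT arrays and 1237, 1504 and 1398 on the sgs1Δ arrays, a difference of -0.35 ± 0.14 (SE, adjusted p = 0.0541) that was not called. A probe shared by PHO3 and PHO5 (PHO3/PHO5) rose by 0.44, far less than the probe of PHO5 alone, so probes for this pair disagree in size. The glycerophosphoinositol transporter gene GIT1 had a difference of 0.02. The list had 10 higher and 1 lower with brightness in the fit. With tangeretin it had 14 higher and 1 lower. Array brightness in the fit ended the calls of VTC2 (0.81), PHO81 (0.30) and PHO3/PHO5 (0.23), at the log2 differences given in brackets.

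**Figure D3:**
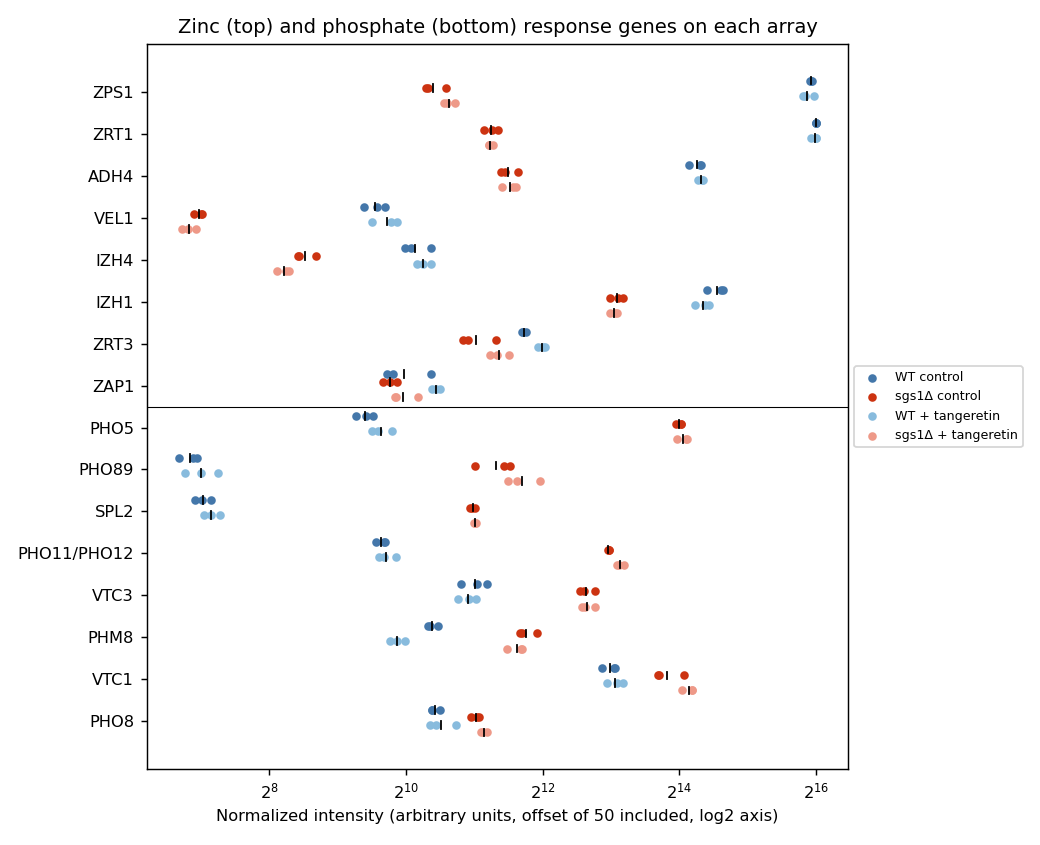
Normalized intensity (log2 axis) of 8 zinc response genes (top) and 8 phosphate response genes (bottom) on each of the 12 arrays, with the mean of each group as a black tick. The sgs1Δ arrays (reds) lie left of the WT arrays (blues) for ZPS1, ZRT1, ADH4 and VEL1, and right of them for PHO5, PHO89, SPL2 and PHO11/PHO12, in both media.

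Mating-type genes check the cell type named on the labels. MATα cells make α-factor and the receptor Ste3, and the repressor α2 keeps the genes of a cells off in them. All 5 α cell genes and all 7 a cell genes on the lists were detected on every control array of both strains. Between 88.5% and 94.5% of all gene probes were detected on a control array. Detection alone therefore does not show that a cell transcripts were present in strains labelled MATα. The HMRA1 probe, for the a1 protein that only the MATa allele expresses, was detected on none of the WT arrays and on 2 sgs1Δ arrays, at 61, 56.6 and 75.1, close to the offset. The haploid genes STE4, STE18, GPA1, FUS3, HO and RME1 were detected on all 6 arrays. Whether cells of both mating types were present was not tested.

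α cell genes were higher in sgs1Δ. MF(ALPHA)1, the main α-factor gene, read 1885, 1962 and 1566 on the WT arrays and 21273, 19501 and 22486 on the sgs1Δ arrays, an 11.7-fold rise with a log2 difference of 3.55 ± 0.10 (SE, adjusted p = 1.27e-11). MF(ALPHA)2, the minor α-factor gene, read 433, 467 and 368 on the WT arrays and 2289.8, 2359 and 2217 on the sgs1Δ arrays, a rise of 2.44 ± 0.09 (SE, adjusted p = 1.88e-10). STE3, the a-factor receptor, rose by 1.68 and SAG1, the α-agglutinin, by 1.00. The α-factor barrier gene AFB1 had a difference of 0.02, so 4 of the 5 passed, with 0 lower and a median of 1.68. The silent-locus probes HMLALPHA1 and HMLALPHA2, whose sequences are shared with MATα1 and MATα2, the regulators of these genes, went down, by 1.22 and 0.57. They were named after their values were seen. With brightness HMLALPHA2 (-0.37) was not called (log2 difference then in brackets). Probes that also name the MAT genes differed by -0.64 (HMLALPHA1/MATALPHA1, called) and -0.44 (HMLALPHA2/HMRA2/MATALPHA2, not called) in that fit.

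Of 7 a cell genes 4 rose and 0 fell, with a median of 0.32. The a-factor gene MFA1 read 816, 814 and 894 on the WT arrays and 2157, 1790.5 and 1934 on the sgs1Δ arrays, a rise of 1.22 ± 0.10 (SE, adjusted p = 3.95e-07). AGA2, a subunit of a-agglutinin, rose by 0.90, the a-factor exporter gene STE6 by 0.37 and MFA2 by 0.32. The α-factor receptor gene STE2 (0.27), the protease gene BAR1 (0.13) and ASG7 (0.03) were not called. The calls of MFA2 and STE6 were each lost without WT control 3 and without sgs1Δ control 1. With brightness in the fit the α list had 4 higher and 0 lower and the a list 5 higher and 0 lower.

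Pheromone signalling genes as a list lay near the rest of the genome. Of 25 measured 3 rose and 9 fell, with a median of -0.07, beside a median of -0.06 and 28.9% lower for all genes outside chromosome II. AGA1, the agglutinin anchor that both mating types make, read 12171, 11586 and 8254 on the WT arrays and 4704, 4780.1 and 4878 on the sgs1Δ arrays, a fall with a log2 difference of -1.14 ± 0.13 (SE, adjusted p = 1.19e-05). SST2, which turns the pheromone signal off, fell by 0.98, the fusion gene FUS1 by 0.89 and FAR1, which arrests the cell cycle, by 0.66. PRM4 stood against them with a rise of 1.65 ± 0.09 (SE, adjusted p = 8.26e-09). Brightness in the fit left 2 higher and 4 lower. With tangeretin, AGA1 and FUS1 differed by -0.05 and -0.37 between the strains, and the list had 7 higher and 5 lower.

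**Figure D4:**
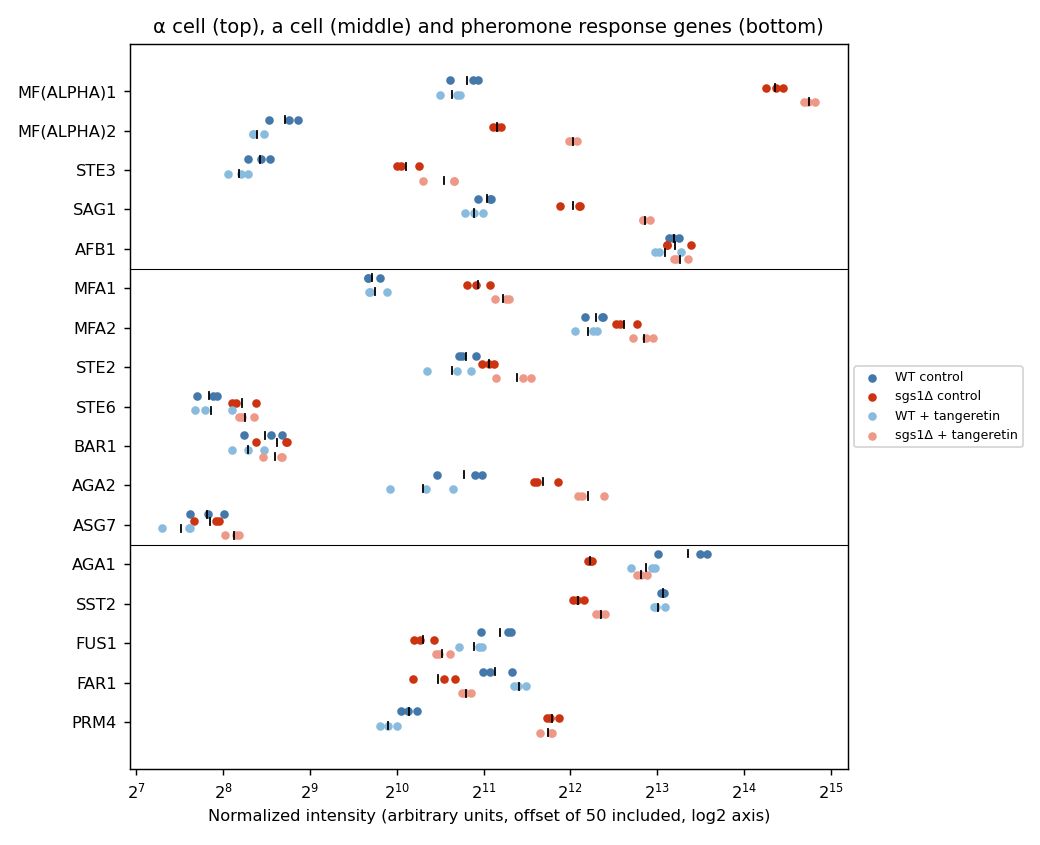
Normalized intensity (log2 axis) of 5 α cell genes (top), 7 a cell genes (middle) and 5 pheromone response genes (bottom) on each of the 12 arrays, with group means as black ticks. The sgs1Δ arrays (reds) are right of the WT arrays (blues) for MF(ALPHA)1, MF(ALPHA)2, STE3, SAG1, MFA1 and AGA2, and the control sgs1Δ arrays are left of the control WT arrays for AGA1, SST2, FUS1 and FAR1.

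Ergosterol synthesis genes were higher in sgs1Δ. Of 24 measured 16 rose and 2 fell, with a median of 0.70, and none of them lies on chromosome II. UPC2, the activator that senses low sterol, read 229, 272 and 302 on the WT arrays and 520.4, 691 and 793 on the sgs1Δ arrays, a rise of 1.31 ± 0.15 (SE, adjusted p = 1.07e-05). The scaffold gene ERG28 rose by 1.70, the desaturase gene ERG3 by 1.54, the phosphomevalonate kinase gene ERG8 by 1.35 and the oxidase gene ERG25 by 1.26. ERG11, the lanosterol demethylase that azole drugs block, rose by 0.93. Members that fell were HMG2, an HMG-CoA reductase (-0.39), and ECM22, another sterol activator (-0.38). IDI1 had a difference of 1.60 ± 0.76 (SE, adjusted p = 0.0978) and was not called, and its WT control 2 value lay far below the other WT arrays, at 88.4 against 1503 and 1647. With brightness in the fit the list had 12 higher and 0 lower. Calls lost with array brightness in the fit, with the log2 difference then, were those of HMG2 (-0.31) and ECM22 (-0.42).

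Several genes known from anaerobic growth rose strongly as well. DAN1, a cell wall mannoprotein of anaerobic cells, read 150.2, 157 and 113 on the WT arrays and 1474, 1279.8 and 1460.0 on the sgs1Δ arrays, a 10.1-fold rise with a log2 difference of 3.34 ± 0.13 (SE, adjusted p = 2.42e-10). TIR1, a related wall protein, read 3067, 3521 and 3301 on the WT arrays and 20920.1, 22020.1 and 21521 on the sgs1Δ arrays, a rise of 2.71 ± 0.08 (SE, adjusted p = 1.84e-11). DAN4 and TIR3 rose by 2.03 and 1.28 and the sterol importer gene AUS1 by 0.39, while TIR4 and TIR2 fell by 0.65 and 0.32. The list thus had 5 of 9 higher and 2 lower (median 0.39), or 4 higher and 0 lower with brightness in the fit. Seripauperin probes, also for wall proteins of anaerobic cells, had 5 of 18 higher and 7 lower (median 0.07). SET4 and CYB5 are not on the list. SET4, a SET-domain protein gene, read 103, 90.5 and 97 on the WT arrays and 619, 652 and 637 on the sgs1Δ arrays and rose by 2.72 ± 0.08 (SE, adjusted p = 2.21e-11). It was detected on 1 WT array and all 3 sgs1Δ arrays, so its WT level is close to background and the size of the rise is uncertain. CYB5, cytochrome b5, an electron donor in sterol and lipid synthesis, rose by 2.29 ± 0.23 (SE, adjusted p = 3.54e-06). Of the genes named, AUS1 (0.03), TIR4 (-0.19) and TIR2 (-0.05) lost the call with brightness (log2 difference then in brackets).

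Iron uptake genes leaned higher, with 14 of 23 up and 2 down (median 0.38). SIT1, a transporter of the siderophore ferrioxamine, read 785, 921 and 1391 on the WT arrays and 4648, 4686 and 5032 on the sgs1Δ arrays, a rise of 2.26 ± 0.17 (SE, adjusted p = 2.02e-07). The heme oxygenase gene HMX1 rose by 1.29, the vacuolar iron permease gene FTH1, which lies on chromosome II, by 1.30, and ISU2, a scaffold of iron-sulfur clusters, by 0.84. The iron oxidase gene FET3 and its partner FTR1 rose by 0.38 and 0.70, and the wall mannoprotein genes FIT1 and FIT3 fell by 0.57 and 0.49. The list had 9 higher and 0 lower with brightness in the fit. Of 11 copper genes 4 rose and 2 fell (median 0.18). CTR1, the high-affinity copper transporter, read 3049.7, 2995 and 3113 on the WT arrays and 985, 1118 and 974 on the sgs1Δ arrays, a fall with a log2 difference of -1.58 ± 0.10 (SE, adjusted p = 3.51e-08), and the metal reductase gene FRE7 fell by 1.28. The CUP1-1 metallothionein probe rose by 1.32, and the probe shared by its copies (CUP1-1/CUP1-2), near saturation in sgs1Δ, by 0.42. With brightness the copper list had 1 higher and 2 lower. Array brightness in the fit ended the calls of FIT1 (-0.24), FIT3 (-0.12), CUP1-1 (0.42) and CUP1-1/CUP1-2 (0.33), at the log2 differences given in brackets.

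Sulfur assimilation and methionine genes were higher in sgs1Δ, with 18 of 26 up and 3 down (median 0.52). STR3, a cystathionine beta-lyase, read 354, 310.4 and 311 on the WT arrays and 817, 1039.7 and 909.5 on the sgs1Δ arrays, a 2.83-fold rise (adjusted p = 3.46e-07). MET14, the adenylylsulfate kinase, MET13, a folate reductase, and the regulator gene MET28 rose by 1.02, 0.89 and 0.83. MMP1, which imports S-methylmethionine, fell by 1.21. Brightness in the fit left 10 higher and 1 lower. Both strains carry the met15 deletion, so the list is described in cells that share that block.

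Gcn4 activates amino acid synthesis during starvation, and 16 of 29 of its target genes rose while 2 fell (median 0.32). HIS7 of histidine synthesis, on chromosome II, rose by 1.47, and LEU1, ILV2 and BAT1 of branched-chain synthesis by 1.19, 1.17 and 0.92. GCN4 itself had a difference of -0.06. With brightness in the fit 3 higher and 0 lower were counted. Of 9 arginine synthesis genes 3 rose and 0 fell (median 0.22, 0 higher and 0 lower with brightness), among them ARG8 by 0.66 (not called without WT control 2 or sgs1Δ control 3). The arginine breakdown genes CAR1 and CAR2 rose by 1.56 and 1.30, within a list of 20 nitrogen-repressed genes of which 7 rose and 3 fell (median 0.27, 5 higher and 0 lower with brightness). The calls of HIS7 (0.63), ILV2 (0.32), ARG8 (0.26) and CAR1 (0.64) were lost with brightness, at the log2 differences in brackets.

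Among genes of aromatic and branched amino acid breakdown, ARO10 and ARO9 had the largest falls. ARO10, the decarboxylase of the Ehrlich pathway, read 11444, 13081 and 14368 on the WT arrays and 1826, 1749 and 1908 on the sgs1Δ arrays, a 7.07-fold fall with a log2 difference of -2.82 ± 0.10 (SE, adjusted p = 1.06e-10). ARO9, the aromatic aminotransferase that precedes it, read 26101, 28683 and 27763 on the WT arrays and 5317, 3965 and 4239 on the sgs1Δ arrays, a fall with a log2 difference of -2.62 ± 0.12 (SE, adjusted p = 1.56e-09). For both, the groups lay well apart. ATF1, an alcohol acetyltransferase, fell by 1.34, and PDC6, a minor pyruvate decarboxylase, by 0.83, while the related acetyltransferase gene ATF2 rose by 1.84. The activator gene ARO80 had a difference of -0.17 that was not called. The list had 1 of 10 higher and 4 lower (median -0.10), and 1 higher and 3 lower with brightness in the fit. With brightness PDC6 (-0.61) was not called (log2 difference then in brackets).

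Most DNA repair genes outside chromosome II differed by less than 2-fold, as did most of all genes there. The members on chromosome II were higher, as were 81% of all genes there. Outside it, 16.8% of all genes rose (1.72% by at least 2-fold) and 28.9% fell (1.56% by at least 2-fold). The list counts stand beside these shares. Among the partners of Sgs1 and the nucleases that can stand in for it, the list had 6 of 17 higher and 3 lower (median 0.08), with SGS1 itself among those lower. The protease gene WSS1 rose by 0.87, the anti-recombinase helicase gene SRS2 by 0.57, and SLX1 and MMS4, nuclease subunits encoded on chromosome II, by 0.98 and 0.54. MUS81, the catalytic partner of Mms4, had a difference of -0.03, and SLX4, the partner of Slx1, fell by 0.40. The RAD52 group list had 3 of 20 higher and 4 lower (median 0.08). RDH54, a translocase encoded on chromosome II, rose by 1.39, and SAE2, which starts end resection, RAD55 and CSM2 fell by 0.76, 0.59 and 0.56. RAD52 had a difference of 0.14 and was not called. With brightness in the fit these lists had 2 higher and 2 lower and 1 higher and 0 lower. Of the genes named, WSS1 (0.06), SRS2 (0.52), SLX4 (-0.19), SAE2 (-0.35), RAD55 (-0.23) and CSM2 (-0.33) lost the call with brightness (log2 difference then in brackets).

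Checkpoint genes stand beside shares over all genes of 81% higher on chromosome II, and of 16.8% higher and 28.9% lower elsewhere. CHK1, MEC1 and TEL1, the kinase genes on chromosome II, rose by 1.42, 1.13 and 0.93. None of the 11 measured elsewhere rose, while the fork protein gene MRC1 and the Mec1 partner gene LCD1 fell by 0.55 and 0.44. RAD53, the effector kinase, had a difference of -0.16. The list had 3 of 14 higher and 2 lower (median -0.08) or 2 higher and 0 lower with brightness. The replication list had 10 of 34 higher and 12 lower (median 0.06), and is likewise read against those shares. All 6 on chromosome II rose, with MCM7 and MCM2 of the replicative helicase at 1.08 and 0.76, the origin subunit gene ORC2 at 0.86 and POL12 of DNA polymerase alpha at 0.79. The 28 elsewhere had a median of -0.21 with 4 higher and 12 lower, including RFC3 and CDC45 at -0.60 and -0.53. With brightness the list had 6 higher and 0 lower, so the falls elsewhere were not called. Array brightness in the fit ended the calls of CHK1 (0.06), MRC1 (-0.31), LCD1 (-0.10), MCM2 (0.59), RFC3 (-0.43) and CDC45 (-0.33), at the log2 differences given in brackets.

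Genes known to respond to DNA damage were mixed. HUG1, a small inhibitor of ribonucleotide reductase, read 359.6, 353 and 284 on the WT arrays and 825, 838 and 748 on the sgs1Δ arrays, a rise of 1.28 ± 0.12 (SE, adjusted p = 2.38e-06). RNR3, the damage-induced large subunit of that enzyme, read 374, 372 and 303 on the WT arrays and 291, 248 and 186 on the sgs1Δ arrays, a fall with a log2 difference of -0.55 ± 0.14 (SE, adjusted p = 0.00617, not called with brightness). RNR4, a small subunit, rose by 0.64. The polyubiquitin gene UBI4 rose by 1.85 and the stress gene DDR48 by 0.91, with the latter also on a probe shared with the overlapping model YMR173W-A (DDR48/YMR173W-A, 1.13). The photolyase gene PHR1 fell by 0.70. The list had 6 of 18 higher and 2 lower (median 0.19) or 5 higher and 0 lower with brightness. In excision, mismatch and post-replication repair the list had 6 of 23 higher and 5 lower (median 0.02). MMS2, a ubiquitin-conjugating factor of error-free damage bypass, read 3636, 3796 and 3733 on the WT arrays and 1120.3, 933 and 979 on the sgs1Δ arrays, a fall with a log2 difference of -1.88 ± 0.09 (SE, adjusted p = 3.44e-09). The mismatch repair gene MSH3 rose by 0.60, and with brightness 0 higher and 1 lower were counted. The calls of RNR4 (0.11), PHR1 (-0.19) and MSH3 (0.44) were lost with brightness, at the log2 differences in brackets.

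Histone genes lie on both sides of the division by chromosome, and 81% of all chromosome II genes rose. HTA2, HHT1 and HTB2, on chromosome II, rose by 1.15, 0.81 and 0.44. HTA1, HTB1 and the linker histone gene HHO1, which lie elsewhere, fell by 0.43, 0.34 and 0.25, while the probe shared by HHF1 and HHF2 (HHF1/HHF2), of which 1 lies on chromosome II, rose by 0.69. The list had 4 of 10 higher and 3 lower (median 0.12). No histone gene was called with brightness in the fit (0 higher and 0 lower). The telomere and silencing list had 4 of 15 higher and 3 lower (median 0.15). SIR2, the silencing deacetylase, fell by 0.83 and the telomere length regulator RIF2 by 0.67 (not called without WT control 2 or sgs1Δ control 2), while RIF1 on chromosome II rose by 0.79 and SIR3 by 0.66. With brightness 1 higher and 0 lower were counted. Calls lost with array brightness in the fit, with the log2 difference then, were those of SIR2 (-0.57), RIF2 (-0.19) and SIR3 (0.09).

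Genes of the G1 to S transition were lower. The list had 1 of 19 higher and 13 lower (median -0.44). CLB6, an S phase cyclin, read 1940.5, 2039.8 and 1378 on the WT arrays and 868, 685 and 896 on the sgs1Δ arrays, a fall with a log2 difference of -1.12 ± 0.14 (SE, adjusted p = 3.22e-05). CLN1, a G1 cyclin, read 2737, 2353 and 1895 on the WT arrays and 1146, 1001 and 1076 on the sgs1Δ arrays, a fall with a log2 difference of -1.10 ± 0.12 (SE, adjusted p = 1.07e-05). The groups of both were apart. SVS1 and CSI2, targets of the same transcription wave, fell by 0.95 and 0.82, and the other G1 cyclin CLN2 by 0.44. With brightness in the fit the list had 0 higher and 5 lower, and with tangeretin 1 higher and 16 lower. The mitotic list had 6 of 15 higher and 2 lower (median 0.12), with CHS2 on chromosome II at 1.29 and MOB1 at 0.84, or 1 higher and 0 lower with brightness. Genes of daughter cell separation had 2 of 11 higher and 5 lower (median -0.16), with AMN1 on chromosome II at 1.15 and the glucanase gene SCW11 at -0.84, or 0 higher and 1 lower with brightness. Of the genes named, SVS1 (-0.71), CHS2 (1.14), MOB1 (0.42) and AMN1 (0.22) lost the call with brightness (log2 difference then in brackets).

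Nuclear genes of the respiratory chain leaned lower. The list had 3 of 36 higher and 16 lower (median -0.20), with COX4 at -0.79, CYT1 at -0.77, SDH2 at -0.73 and COX12 higher at 0.65. Of 33 members outside chromosome II 16 fell and 1 rose. The tricarboxylic acid, glyoxylate and gluconeogenesis list had 3 of 19 higher and 10 lower (median -0.27), with CIT2, a citrate synthase, at 0.83, ADH2 at -0.70 and MDH2 at -0.64. KGD1 rose by 0.77, a call that ended without WT control 1 or 2 or sgs1Δ control 2 or 3 and whose sign turned with brightness. With brightness these lists had 1 higher and 4 lower and 1 higher and 4 lower. Of 6 proteins encoded in mitochondrial DNA, ATP8 and COX2 fell by 0.91 and 0.47, and 0 higher and 0 lower were counted with brightness. Of the glucose transporter and sensor genes 2 of 14 rose and 6 fell (median -0.29). HXT7, a high-affinity transporter, read 867, 1181 and 1158 on the WT arrays and 319, 319 and 309 on the sgs1Δ arrays, a fall with a log2 difference of -1.75 ± 0.12 (SE, adjusted p = 1.35e-07), and with brightness the list had 2 higher and 5 lower. Glycolysis and fermentation had 4 of 18 higher and 1 lower (median 0.01), with ENO1 at 0.72 and PGI1 on chromosome II at 0.75, or 0 higher and 1 lower with brightness. The galactose genes had 2 of 8 higher and 2 lower (median -0.03). GAL1, on chromosome II, whose promoter drives HO on the plasmid, rose by 0.59, below the chromosome median of 0.72, its activator gene GAL4 fell by 0.56 and GAL2 by 0.76, and 2 higher and 0 lower were counted with brightness. Array brightness in the fit ended the calls of CYT1 (-0.55), SDH2 (-0.64), COX12 (0.21), ADH2 (-0.79), ATP8 (-0.56), COX2 (-0.15), ENO1 (0.06), PGI1 (0.42), GAL4 (-0.39) and GAL2 (-0.36), at the log2 differences given in brackets.

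Protein folding and stress genes leaned higher. The chaperone list had 14 of 24 higher and 2 lower (median 0.29). HSP26 read 249, 249 and 264 on the WT arrays and 916, 1301 and 1065 on the sgs1Δ arrays, and the mitochondrial disaggregase gene HSP78 and the cochaperone gene YDJ1 rose by 1.24 and 0.98, while HSP82 fell by 0.38. The general stress list had 10 of 24 higher and 5 lower (median 0.30). DDR2, a small stress protein, read 1281, 1269 and 1185 on the WT arrays and 9232, 7391 and 7630.2 on the sgs1Δ arrays, a 6.47-fold rise with a log2 difference of 2.69 ± 0.11 (SE, adjusted p = 3.42e-10). The membrane protein gene HSP12 rose by 1.84 and the hydrophilin gene GRE1 by 1.57, whereas the glycogen genes GPH1, GSY1, GLC3 and GSY2 fell by 0.75, 0.64, 0.49 and 0.32. With brightness these lists had 3 higher and 0 lower and 10 higher and 3 lower. The proteasome list had 12 of 32 higher and 0 lower (median 0.25), led by RPN5 (0.98), RPT1 (0.92) and PRE9 (0.91). It had 1 higher and 0 lower with brightness, where RPN5 turned to -0.19, and 8 higher and 3 lower with tangeretin. The called members were mostly different genes, with 2 called in the same direction in both media. The oxidative stress list had 6 of 14 higher and 2 lower (median 0.13), with GPX2 on chromosome II at 1.19, or 0 higher and 0 lower with brightness. The calls of HSP78 (0.11), YDJ1 (0.13), HSP82 (-0.29), GLC3 (-0.23), GSY2 (-0.24), RPT1 (0.57), PRE9 (0.66) and GPX2 (0.63) were lost with brightness, at the log2 differences in brackets.

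Ribosome biogenesis genes had 3 of 49 higher and 16 lower (median -0.16), beside 28.9% lower over all genes outside chromosome II. UTP20 rose most (1.11) and lies on chromosome II, where 81% of genes rose. UTP8 and UTP4 of the small subunit processome were at -0.74 and -0.71. The other lists of this paragraph stand beside 21.2% higher and 27.2% lower over all genes. Ribosomal protein genes had 23 of 124 higher and 3 lower (median 0.08), with RPS3 at 1.19 and RPS9A at -1.38. Paralogous ribosomal protein genes share sequence, and their probes may not tell them apart. With brightness these lists had 1 higher and 5 lower and 1 higher and 1 lower. The vacuolar proton pump list had 5 of 18 higher and 2 lower (median 0.02), with its assembly factor gene VOA1 at 1.22, or 0 higher and 0 lower with brightness. Calls lost with array brightness in the fit, with the log2 difference then, were those of UTP8 (-0.46), RPS3 (0.98) and VOA1 (0.30).

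Transport and wall genes moved one by one, beside 21.2% higher and 27.2% lower over all genes. The cell wall list had 8 of 20 higher and 3 lower (median 0.12). CWP1, a wall mannoprotein, read 22382, 22334 and 22288 on the WT arrays and 7698, 6386 and 7354 on the sgs1Δ arrays, a fall with a log2 difference of -1.65 ± 0.09 (SE, adjusted p = 1.02e-08), and PIR3 and the glucan synthase gene GSC2 rose by 1.32 and 1.29. The multidrug resistance list had 7 of 19 higher and 5 lower (median 0.00). QDR2, a drug exporter, rose by 1.63 and QDR3 on chromosome II by 1.21, while the weak acid pump gene PDR12 and QDR1 fell by 1.52 and 1.04. With brightness these lists had 6 higher and 2 lower and 2 higher and 2 lower. Amino acid permeases had 6 of 16 higher and 4 lower (median 0.07), with CAN1 for arginine at 1.01 and the peptide transporter gene PTR2 at -1.08, or 2 higher and 1 lower with brightness. Phospholipid synthesis had 1 of 14 higher and 5 lower (median -0.15), where the inositol synthase gene INO1 read 3667, 3723 and 2985 on the WT arrays and 1388, 1102 and 1142 on the sgs1Δ arrays, a fall with a log2 difference of -1.51 ± 0.12 (SE, adjusted p = 4.29e-07). It had 0 higher and 4 lower with brightness. Purine and one-carbon genes had 8 of 20 higher and 3 lower (median 0.29), with IMD2 at -0.91 and ADE17 at 0.80, or 1 higher and 2 lower with brightness. Thiamine and pyridoxine genes had 5 of 14 higher and 2 lower (median 0.20), with SNO1 at 0.70, or 3 higher and 0 lower with brightness. Of the genes named, CAN1 (0.49) and ADE17 (0.55) lost the call with brightness (log2 difference then in brackets).

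**Figure D5:**
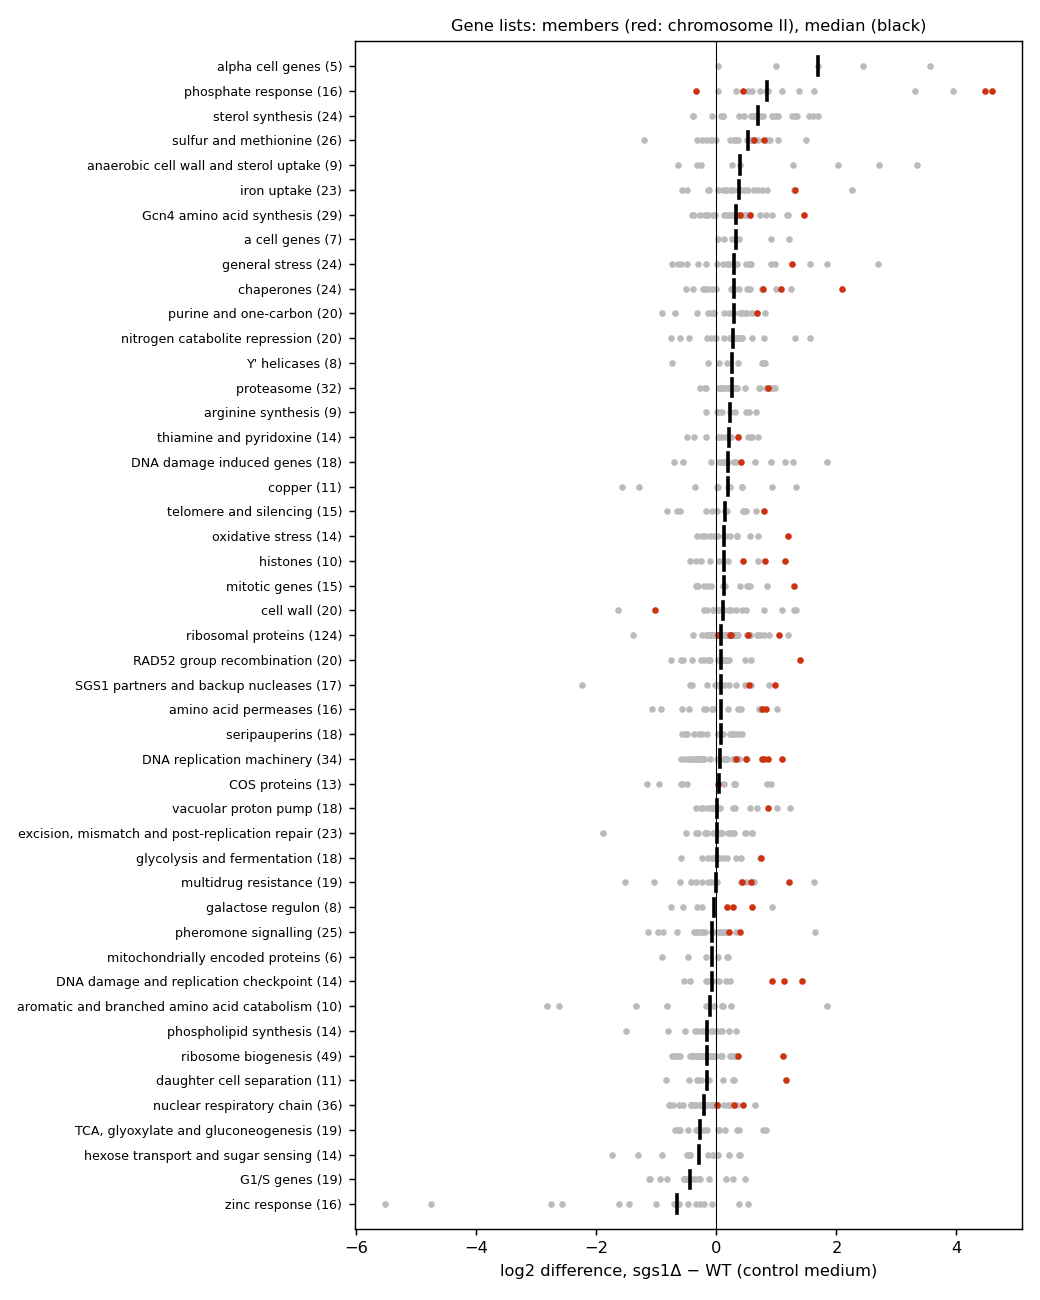
Log2 difference between strains in control medium for the members of 47 gene lists, sorted by list median (black bar), with members on chromosome II in red and the number of measured members in brackets. The α cell list has the highest median, 1.68, and the zinc response list the lowest, -0.66, and the red points lie mostly to the right of the other members of their list.

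Beyond the lists, the largest differences outside chromosome II included genes of little known function. YGL072C, a questionable open reading frame next to HSF1 in systematic order, read 1234, 1256 and 1012 on the WT arrays and 155, 131 and 134 on the sgs1Δ arrays, an 8.32-fold fall with a log2 difference of -3.06 ± 0.11 (SE, adjusted p = 9.89e-11). PBI1 read 184, 117 and 131 on the WT arrays and 1741, 2616 and 1964 on the sgs1Δ arrays, a rise of 3.88 ± 0.17 (SE, adjusted p = 1.2e-09). YMR317W read 211, 203 and 169 on the WT arrays and 2676, 2439 and 2348 on the sgs1Δ arrays, a rise of 3.68 ± 0.12 (SE, adjusted p = 4.84e-11). In each, the groups were far apart. The probe shared by YAR066W and YHR214W (YAR066W/YHR214W) had a difference of -2.27, the membrane transporter homologue gene ESBP6 one of -2.13 and YCR102C one of -2.09. Of the 24 largest differences named outside chromosome II, all kept their calls with brightness in the fit and without any single array.

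The strain difference was then read on the 6 tangeretin arrays, on which 46.3% of genes were called (20.6% higher and 25.6% lower). Chromosome II again stood apart, with a median of 0.67 and 329 of 416 genes higher (79.1%). Of its 337 genes that rose in control medium, 311 also rose with tangeretin (92.3%, and 94.5% of the 329). With tangeretin 16.4% of genes outside chromosome II were called higher and 27.3% lower. Of these genes, 572 genes rose in both media (58.4% of 979 and 59.9% of 955) and 1159 fell in both (69.0% of 1680 and 72.9% of 1589). The log2 differences of both media correlated at r = 0.823 across the 5816 genes outside chromosome II and at 0.867 across the 416 on it, where genes are not independent replicates and the arrays of a strain share its brightness. ZPS1 differed by -5.24 with tangeretin, ZRT1 by -4.74, PHO5 by 4.43, PHO89 by 4.69, SPL2 by 3.86, ARO10 by -2.76 and MF(ALPHA)1 by 4.11. Each of these had the direction seen in control medium. YGL072C differed by -0.92, against -3.06 in control medium.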

How the data were processed

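Total RNA of 4 groups of 3 samples was prepared by hot-phenol extraction and turned into cDNA, per the labels' protocols, and measured on 12 Phalanx OneArray slides. The deposited raw table holds an intensity per spot and array, whose background appears already subtracted, since the 2158 empty spots had a median of 0 to 1 on every array, and a scanner flag (unit other, read here as detected when 0), per the file headers. The authors' deposited value table is on the log2 scale, normalized by a method not given in the sources used here. Per array, its correlation with log2 of the raw intensity was 0.9993 to 0.9999, and it was used as an alternative only. Its centring is a median of 9.98 to 9.99 on each array.

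Raw intensities under 0 were set to 0, 50 was added, and the arrays were quantile normalized and put on the log2 scale (limma 3.58.1, R 4.3.3). Of 9800 spots, 684 controls, the empty spots and 99 probes named for flanking sequence were left out. Of 6859 gene probes, 287 were detected on fewer than 3 arrays and left out, and the brightest probe stood for each of 214 genes with several, which left 6264 genes. RefSeq R64 gave current names to 5968 probes with 1 gene name, 569 such probes had no match, and 322 name several genes. Chromosomes were read from systematic names, and for RNA probes without one from RefSeq or the letter in the tRNA name. All 4 groups entered 1 fit with lmFit and eBayes (8 residual degrees of freedom, 13.7 in total) without covariates, two-sided, with Benjamini-Hochberg adjustment over all genes and a threshold of 0.05. A raw intensity of 65000 or more counted as saturated. The precision is limited by 3 arrays a group, and folds include the offset, which understates changes of dim genes.

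Replicate numbers did not pair the arrays: deviations of same-numbered arrays correlated at 0.05, -0.31 and 0.24, so no block was used. The procedure was tested on simulated data. The gene lists came from textbook knowledge, and the members and lists were chosen with earlier results of these data known. Named genes were the 12 largest rises and falls outside chromosome II and the 8 largest rises and 4 largest falls on it among called genes with groups of arrays apart, up to 4 called members of each list, and SGS1, TOP3, RMI1, the neighbours of SGS1, RNR3, HUG1 and the marker and plasmid genes. Other members were named after their values were seen. A promoter motif search was planned and not run, since promoter sequences were not used here.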

Additional observations from a re-analysis of the deposited data

Results flagged for a closer look

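The strain difference itself differed between the media for some of the named genes by a test of the interaction (limma, adjusted over all genes), and the change is given from control medium to tangeretin. The difference of HO changed by -1.16 (adjusted p = 0.0127), going from 0.43 to -0.73. That of YGL072C was 2.13 higher (adjusted p = 1.46e-05), going from -3.06 to -0.92. Among mating genes, MF(ALPHA)2 went from 2.44 to 3.64, a change of 1.19 (adjusted p = 0.00124), SAG1 from 1.00 to 1.98, a change of 0.98 (adjusted p = 0.00473), and AGA1 from -1.14 to -0.05, a change of 1.08 (adjusted p = 0.0143). The copper transporter gene CTR1 went from -1.58 to -2.44 (-0.86, adjusted p = 0.0127), the acid pump gene PDR12 from -1.52 to -0.86 (0.66, adjusted p = 0.0132), GRE1 from 1.57 to 2.23 (0.67, adjusted p = 0.0465) and SNO1 from 0.70 to 1.22 (0.52, adjusted p = 0.0473).

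The strain difference was called in opposite directions in both media for 20 of the 6264 genes, HO among them. Each also had an interaction past the threshold, which follows largely from that choice and is no separate support. The calls of HO and ATP8 in control medium were lost with brightness in the fit, and interactions were not read in that fit. ATP8, an ATP synthase subunit encoded in mitochondrial DNA, went from -0.91 to 0.56, a change of 1.47 (adjusted p = 0.00367). PBI2, an inhibitor of a vacuolar protease, went from 1.22 to -0.57, a change of -1.79, and the translation termination gene ITT1 from -0.38 to 0.86, a change of 1.24. The deacetylase gene HST3 changed by -0.77. Of the remaining genes, the change was upward for YOR053W (1.26), AQY2 (0.84), BSC1 (0.82) and FIG2 (0.71). It was downward for PBR1 (-1.32), VPS53 (-0.98), SRF1 (-0.98), ARP7 (-0.92), CCA1 (-0.85), BRX1 (-0.76), NOT3 (-0.76), YLR162W (-0.70), MRP10 (-0.62), VPS70 (-0.61) and YPT31 (-0.56).

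Probes named for sequence just outside genes entered no comparison, and 79 of 99 of them were detected on every array, of which 10 lie on chromosome II (median difference between strains in control medium 0.20) and 69 elsewhere (median -0.43). These probes were scaled to the median gene intensity of each array and were not quantile normalized. Their medians are therefore not on the same scale as the gene differences above.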

How the results depend on the processing

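The alternatives were run on the counts and the 213 named genes, except that the 2-fold minimum applies to counts only, 178 named genes were left without the dimmest genes and 167 without chromosome II probes, where no chromosome II value exists. The call count of 3026 was 295 with a 2-fold minimum (outside chromosome II 100 higher and 91 lower, on it 101 higher and 2 lower) and 790 with array brightness in the fit (outside 234 higher and 315 lower, on chromosome II 234 higher and 3 lower). Array weights gave 1496 higher outside chromosome II and 21 lower on it, and 75th percentile scaling gave 19 lower on it. The chromosome II median of 0.72 was 0.66 with brightness, 0.69 with no detection filter, 0.75 with an offset of 1, an offset of 16 or the dimmest genes left out, and 0.76 with cyclic loess or the authors' values. Leaving out each array gave 2296 to 3327 calls, outside chromosome II 660 to 1167 higher and 1278 to 1796 lower, on it 329 to 339 higher and 9 to 14 lower, and a median of 0.70 to 0.73. The fitted value of TOP3, undetected in WT and no estimate of a change, turned to -0.39 with 75th percentile scaling. With brightness RPN5 turned to -0.19, SOD2 to -0.013, KGD1 to -0.32 and 1 probe of the Y' helicases to -0.059, 88 other named genes lost their calls, and 2482 of the 2659 calls outside chromosome II kept their sign while their median SE went from 0.11 to 0.16 and their median size from 0.48 to 0.30. Replicate number as a block gave 3048 calls. Normalizing without chromosome II probes gave 2585 calls outside it (1158 higher and 1427 lower) and a median of -0.02 there. Cyclic loess gave 1135 higher and 1454 lower outside it. The causes were not tested. The number of arrays and the spread at low signal limit what could be called.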

Other observations

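Families that lie near chromosome ends had called probes in both directions. Seripauperin probes, for small wall proteins of anaerobic cells, had 5 of 18 higher and 7 lower (median 0.07), COS protein probes 2 of 13 higher and 5 lower (median 0.05), and Y' helicase probes 4 of 8 higher and 1 lower (median 0.27), beside 21.2% higher and 27.2% lower over all genes. Of the COS probes, 8 name only genes outside chromosome II, and of these 0 rose and 5 fell (median -0.53). The 2 COS probes that rose also name a chromosome II gene. The largest differences were -1.16 for COS12 and -0.96 for COS10. Members of these families are close in sequence, so single genes cannot be told apart, and with array brightness in the fit the counts were 1 higher and 0 lower, 0 higher and 2 lower and 0 higher and 0 lower.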
